A study of Mus musculus with 4 samples.

Results

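The complement system is represented here by 9 genes chosen by symbol from a table of 25124 gene symbols: C3, C4b, Cfb, Cfi, Cfp, Cd55, Cd59a, Cd46 and C1ra. All 9 were in the table. RNA had been sequenced from airway epithelial cells sorted by flow cytometry out of the lungs of wild-type C57BL/6 mice. All mice had been treated with HDM (house dust mite), an allergen that provokes allergic airway inflammation. One group had also received an inhibitor of stearoyl-CoA desaturase 1 (SCD1), an enzyme that makes monounsaturated fatty acids (HDM + SCD1 inhibitor, 2 samples). The other had received the vehicle dimethyl sulfoxide (HDM + DMSO, 2 samples). The labels name neither the inhibitor, its dose, the times of treatment, the sorting gate nor the ages of the mice, and mice without HDM were not analysed here.

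Complement is a cascade of mostly secreted proteins that tag particles and cells for clearance. The classical pathway starts when C1 (C1q with the proteases C1r and C1s) cleaves C4 and C2, the lectin pathway starts with MASP proteases, and the alternative pathway amplifies any deposited C3b through factor B, factor D and properdin. All 3 routes meet at C3, whose cleavage releases the anaphylatoxin C3a, and continue to C5 and the pore-forming terminal components. Host cells restrain the cascade with surface proteins such as CD55, CD46 and CD59, and with soluble proteins such as factor I. Most circulating complement is made in the liver, but epithelial cells of the airway and alveolus also make C3.

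The libraries held 24591122 to 27013663 reads assigned to genes. Values are the reads of a gene after division by the size factor of its library, called normalised reads below. The sorted cells carried epithelial markers in every library: Epcam had 5026 to 6732 normalised reads and Cdh1 40262 to 47179. Both airway and alveolar types were present: the club cell gene Scgb1a1 and the alveolar type 2 gene Sftpc (100831 to 191501 normalised reads) were abundant in every library. T cell markers summed to at most 46.8 normalised reads in any library. The neutrophil genes S100a8 and S100a9 were at 0 in all 4, where a count of 0 allows up to 3 reads per library. The 6 neutrophil markers together summed to 135 and 114 with DMSO and 143 and 132 with the inhibitor, mostly from Retnlg (83.2 to 132). Markers of macrophages, fibroblasts and endothelium were present at low levels and differed between libraries of 1 group. The summed fibroblast markers were 890 and 2155 with DMSO, and the summed endothelial markers 2291 and 4899. In such bulk libraries, fewer cells of a type and less RNA per cell cannot be told apart. Nothing states that the 2 samples of a group came from different mice, so the p values measure only the spread between these samples, which may be technical.

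C3 fell with the inhibitor and was the 1 member of 9 that passed the test. The test was limma on log2(value + 25.8), with p values adjusted by Benjamini-Hochberg over 13810 genes and a threshold of 0.05. Over all genes tested it called 1.79%, of which 1.36% of those tested were higher and 0.427% lower with the inhibitor. Cd55, the decay-accelerating factor that dissociates C3 convertases at the cell surface, lay in the other direction just outside the threshold. The other 7 members had intervals that spanned 0.

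The 2 members with the smallest p values in limma, C3 and Cd55, are shown by the sequence before their transcription start. These are the 250 bases upstream of the RefSeq start (build GRCm38.p6, minus strand for both, written 5′ to 3′ in the direction of the gene), at chr17:57228137-57228386 for C3 and chr1:130462745-130462994 for Cd55. Capitals mark the C/EBP pattern TTGCNNAA in C3 and the GC box GGGCGG, read on the opposite strand, in Cd55.
C3: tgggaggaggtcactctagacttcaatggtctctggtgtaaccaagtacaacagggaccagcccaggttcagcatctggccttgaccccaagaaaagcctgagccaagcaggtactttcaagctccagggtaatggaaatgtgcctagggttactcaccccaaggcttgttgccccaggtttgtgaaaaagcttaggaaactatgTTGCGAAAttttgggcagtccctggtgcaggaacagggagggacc
Cd55: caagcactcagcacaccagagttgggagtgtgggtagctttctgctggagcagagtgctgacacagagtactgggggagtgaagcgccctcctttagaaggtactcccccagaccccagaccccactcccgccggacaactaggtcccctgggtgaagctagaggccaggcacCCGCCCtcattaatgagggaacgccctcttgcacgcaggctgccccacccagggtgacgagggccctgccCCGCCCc

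Short patterns were searched on both strands in the window from 250 bases before to 50 bases after the start: the TATA box (TATAAA), C/EBP (TTGCNNAA), STAT (TTCNNNGAA), the GC box (GGGCGG) and the NF-kB consensus. C3 held the C/EBP pattern 45 to 38 bases before the start and a TATA box 15 to 20 bases after it. Cd55 held 2 GC boxes, at 77 to 72 and 7 to 2 bases before the start. No overlap between patterns occurred in these windows. Of 32851 RefSeq windows of this length, 10.8% held the C/EBP pattern, 13.6% the TATA box, 8.30% the STAT pattern, 35.7% the GC box and 5.81% the NF-kB consensus. Windows were matched for 6 of the 9 members (C3, Cfp, Cd55, Cd59a, Cd46 and C1ra). Among these, C1ra held a C/EBP and a STAT pattern after its start, and none held the NF-kB consensus.

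C3 (ENSMUSG00000024164.15; chromosome 17, 57203970 to 57228136, minus strand, mm10) encodes the central component that every activation route cleaves. It had 30535 and 21301 normalised reads with DMSO and 15849 and 10291 with the inhibitor. Both inhibitor libraries lay below both DMSO libraries, and the libraries of each pair lay further apart (9234 and 5558 normalised reads) than the nearest libraries of the 2 groups (5452). The means were 25918 ± 6529 and 13070.2 ± 3930.4 (SD, n = 2 each), a 1.99-fold difference. The log2 fold change was -0.996 ± 0.19 (SE; limma adjusted p = 0.0203; 95% interval -1.40 to -0.59).

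The call of C3 did not hold under every tool, nor with either inhibitor library left out. The log2 fold change was -0.988 with DESeq2 (adjusted p = 0.141), which called 5.67% of the genes it gave an adjusted p, and -0.996 with edgeR (adjusted p = 0.137), which called 0.0654%. Neither passed, and both were run on the recovered reads. Without SCD1 inhibitor replicate 1 it was -1.31 (limma adjusted p = 0.0596), and without SCD1 inhibitor replicate 2 it was -0.69 (adjusted p = 0.506). These 2 fits called 0.0362% and 0.109% of all genes. The call held without DMSO replicate 1 (-0.74) and without DMSO replicate 2 (-1.26), where 5.76% and 2.57% of all genes were called.

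**Figure D1:**
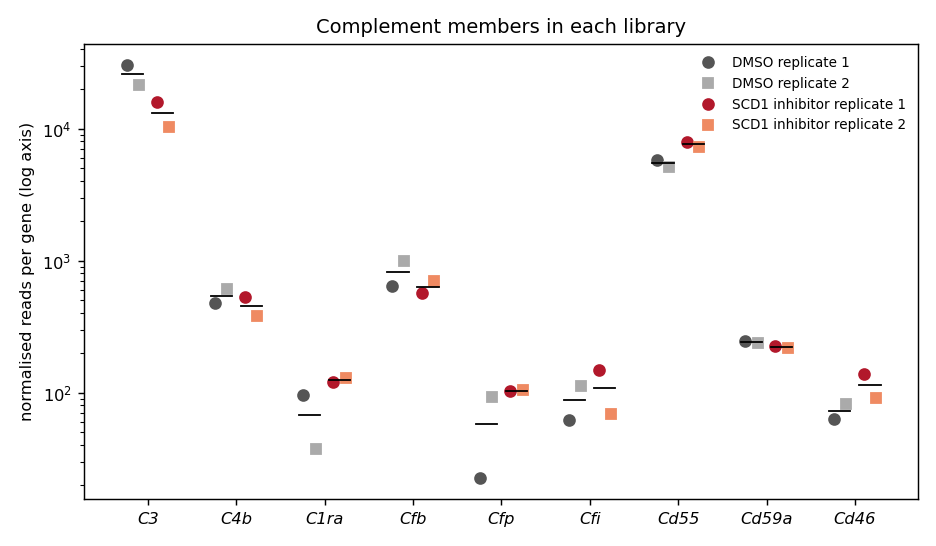
Normalised reads (log axis) of the 9 complement members in each of the 4 libraries; points are libraries and short black lines are group means. For C3 both inhibitor libraries (15849 and 10291) sit below both DMSO libraries (30535 and 21301), and for Cd55 both (7972 and 7289.7) sit above (5782 and 5139).

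Markers of several cell types, but not of all, were lower with the inhibitor, as C3 was. Of the alveolar type 2 markers 3 of 6 fell with the inhibitor, and of the club cell markers 2 of 5 (limma, adjusted p under 0.05). None of either list passed as higher, and Lamp3 of the alveolar type 2 list had a positive log2 fold change (0.071). Over all genes tested, 0.427% were called lower and 1.36% higher. The summed alveolar type 2 markers were 264248 and 316446 normalised reads with DMSO and 207868 and 178234 with the inhibitor, so the groups did not overlap. The summed club cell markers were 452213 and 360410 against 425387 and 235782, so the groups overlapped. Most of this sum was 1 gene, Scgb1a1 (310825 and 241855 against 332447 and 163459), as most of the alveolar type 2 sum was Sftpc. In 3 of the 5 club cell markers the groups did not overlap. No marker of these 2 lists was at 0 in any library. Goblet cell markers, of which 4 of 6 fell, summed to 84400 and 61799 with DMSO and 14855 and 26923 with the inhibitor. Basal cell markers were all negative, though Trp63 was at only -0.026 with overlapping groups (219 and 166 against 90.8 and 362). Of the 5, 0 were called (limma, 4 at an unadjusted p under 0.05). The basal sums of 5232 and 3892 against 913 and 3072 did not overlap. The alveolar type 1 sums did not overlap either (9173 and 9994 against 8194 and 7715). Of the 3 tested, 1 fell (Aqp5), while Hopx had a positive log2 fold change (0.13). Of the mesothelial markers, Msln fell by 1.58 on the log2 scale (limma adjusted p = 0.0381), with list sums of 1449 and 1024 against 464 and 669. The other mesothelial markers did not fall. Upk3b had 61.4 and 26.8 with DMSO and 176 and 40.9 with the inhibitor (log2 fold change 0.78, limma adjusted p = 0.636). Wt1, below the floor, was at 0 in both DMSO libraries and had 55.4 and 32.5 with the inhibitor. Rtkn2 of the alveolar type 1 list was at 0 in DMSO replicate 1. The 5 ciliated cell markers had no call (limma, 2 at an unadjusted p under 0.05), and their sums, mostly Sec14l3, overlapped. The 7 markers common to epithelial cells had no call (limma, 1 at an unadjusted p under 0.05), with sums of 105946 and 106024 against 100441 and 104960. The part of these cell types in the result for C3 was not tested.

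Measured against the markers of 7 epithelial lists, the difference in C3 had different sizes. On the log2 scale, C3 minus the mean of the common epithelial markers was 1.64 and 1.19 with DMSO and 0.79 and 0.069 with the inhibitor, a difference of -0.98. Against the alveolar type 2 markers the values were 0.65 and -0.049 with DMSO and -0.072 and -0.50 with the inhibitor, a difference of -0.58. Against the club cell markers they were 0.14 and -0.13 with DMSO and -0.37 and -0.49 with the inhibitor, a difference of -0.44. The differences against the ciliated and alveolar type 1 markers were -1.12 and -0.60. The groups did not overlap in these 5 comparisons, and the exact permutation p (two-sided) was 0.333 in each, the smallest that 2 samples against 2 allow. Against the goblet and basal cell markers the groups overlapped, with differences of 0.56 and 0.15 (exact permutation p = 0.667 and 1). These are 7 comparisons of 1 family, in which no Benjamini-Hochberg adjusted p can fall below the smallest p given.

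**Figure D2:**
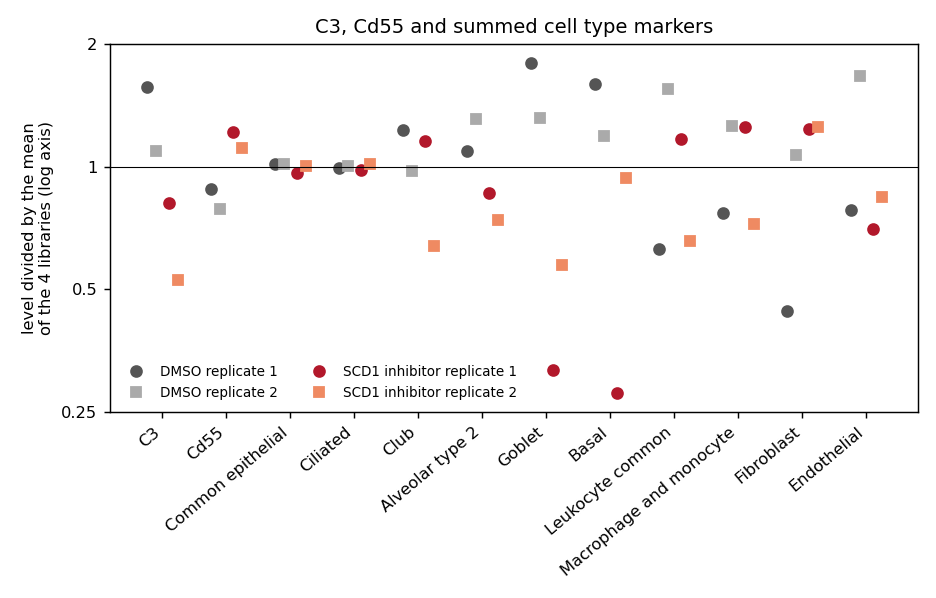
C3, Cd55 and the summed markers of 10 cell types in each library, divided by the mean of the 4 libraries (log axis). C3 and the alveolar type 2 and goblet cell sums are lower in both inhibitor libraries, the common epithelial and ciliated sums lie close to 1 in all 4, and the fibroblast and endothelial sums separate the 2 DMSO libraries.

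The other components of the convertases did not pass. C4b, the component cleaved after classical and lectin activation (ENSMUSG00000073418.4; chromosome 17, 34728380 to 34743882), had 481 and 605 normalised reads with DMSO and 527 and 383 with the inhibitor. The groups overlapped, with a log2 fold change of -0.25 (95% interval -0.85 to 0.35, limma adjusted p = 0.749). C4b has a near-identical copy, C4a, at 27.7 to 87.7 normalised reads, and the counting could split reads between them. Cfb, the protease factor B of the alternative convertase (ENSMUSG00000090231.10; chromosome 17, 34856374 to 34862518), had 645 and 989 with DMSO against 565 and 706. The groups overlapped, with a log2 fold change of -0.33 (interval -0.88 to 0.22, adjusted p = 0.620). Both genes lie with C2 and C4a in the cluster of complement genes of the major histocompatibility region, between 34728380 and 34898265 on chromosome 17. C2, the classical counterpart of Cfb, had 30.2 and 25.8 normalised reads with DMSO and 72.6 and 77.6 with the inhibitor, or 0.91 on the log2 scale (interval -0.31 to 2.12, adjusted p = 0.514). The annotation also places 79.5% of the exon bases of Cfb and 42.8% of those of C2 in a transcript that spans both genes.

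C1ra and Cfp were low in these cells. C1ra, the protease of the C1 complex that activates C1s (ENSMUSG00000055172.10; chromosome 6, 124512405 to 124523443), had 96.5 and 37.7 normalised reads with DMSO and 119 and 128 with the inhibitor. Both inhibitor libraries lay above both DMSO libraries, and the log2 fold change was 0.76 (interval -0.35 to 1.87, limma adjusted p = 0.560). Its near-identical neighbour C1rb was listed at 0 in every library. Cfp, properdin, which stabilises the alternative convertase and is made mainly by myeloid cells (ENSMUSG00000001128.7; chromosome X, 20925454 to 20931555), had 22.4 and 92.2 with DMSO and 102 and 104 with the inhibitor. The gap between groups came from DMSO replicate 1: the log2 fold change was 0.77 (interval -0.45 to 1.99, adjusted p = 0.596), and 0.13 without that library. The 4 common leukocyte markers summed to 332 and 820 normalised reads with DMSO and 618 and 348 with the inhibitor. DMSO replicate 1 was thus the lowest, close to SCD1 inhibitor replicate 2. By gene, Ptprc and Laptm5 were lowest in DMSO replicate 1, and Cd53 and Coro1a in SCD1 inhibitor replicate 2. The 7 macrophage and monocyte markers summed to 549 and 899 against 896 and 517. Of these lists, Cd68 and Marco were at 0 in DMSO replicate 1, and Adgre1 and Cd53 in SCD1 inhibitor replicate 2. No gene of either list was called (limma, 0 at an unadjusted p under 0.05). The part of leukocyte RNA in the values of Cfp was not tested.

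The regulators did not share a direction. Cd55 (ENSMUSG00000026399.12; chromosome 1, 130439027 to 130462744) had 5782 and 5139 normalised reads with DMSO and 7972 and 7289.7 with the inhibitor. Both inhibitor libraries exceeded both DMSO libraries, and the replicates of each group lay closer together than the groups. The means were 5460.2 ± 455 and 7631 ± 482 (SD, n = 2 each), with a log2 fold change of 0.48 ± 0.12 (SE; limma adjusted p = 0.0584; interval 0.23 to 0.73). With DESeq2 it passed (0.48, adjusted p = 0.00346), where 3.93% of the genes with an adjusted p were called higher. It also passed without DMSO replicate 1 (0.57, limma adjusted p = 0.00630). With edgeR it did not (0.47, adjusted p = 0.165). With edgeR and no filter on low counts, where 3.5% of genes were called, and with limma and a replicate block, where 4.88% were, both C3 and Cd55 passed. That edgeR fit was chosen after seeing the data, and the block assumes a pairing by replicate number that the labels do not state. No conclusion is drawn from these 2 fits. The adjacent paralog of Cd55, Cd55b, was much lower, with 129 and 153 against 197 and 142 normalised reads (log2 fold change 0.22, limma adjusted p = 0.870).

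Cd59a, which blocks assembly of the terminal pore (ENSMUSG00000032679.12; chromosome 2, 104095801 to 104115354), varied least among the members: 248 and 236 normalised reads with DMSO and 225 and 218 with the inhibitor. The groups did not overlap, yet the log2 fold change was -0.11 with an interval of -0.87 to 0.65 (limma adjusted p = 0.922). The copy next to it, Cd59b, had 38.7 normalised reads in DMSO replicate 2 and 0 in the other libraries. Cd46, the membrane cofactor for cleavage of C3b and C4b (ENSMUSG00000016493.13; chromosome 1, 195036826 to 195092249), had 63.4 and 82.3 with DMSO and 139 and 91.3 with the inhibitor (log2 fold change 0.50, interval -0.56 to 1.56, adjusted p = 0.712). An antisense gene, A330023F24Rik, shares 14.2% of the exon bases of Cd46, and it had 51.7 and 73.3 against 165 and 149 normalised reads. Since the strand setting of the counting is not given, reads of the pair cannot be told apart. Cfi, the soluble protease that cleaves C3b and C4b (ENSMUSG00000058952.12; chromosome 3, 129835884 to 129875332), had 61.4 and 113 with DMSO and 149 and 68.2 with the inhibitor. Its log2 fold change was 0.22 (interval -0.91 to 1.35, adjusted p = 0.898), and it turned negative when DMSO replicate 1 (-0.11) or SCD1 inhibitor replicate 1 (-0.23) was left out.

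Across the 9 members, 4 had all inhibitor values above all DMSO values (Cd55, Cd46, C1ra and Cfp) and 2 had them below (C3 and Cd59a). Over all genes tested, 44.9% had no overlap between groups, 22.7% with the inhibitor higher and 22.2% with it lower. The median log2 fold change of the members was 0.22, against 0.0056 over all genes tested. The members' median is the value of Cfi, whose sign turned with DMSO replicate 1 or SCD1 inhibitor replicate 1 left out.

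**Figure D3:**
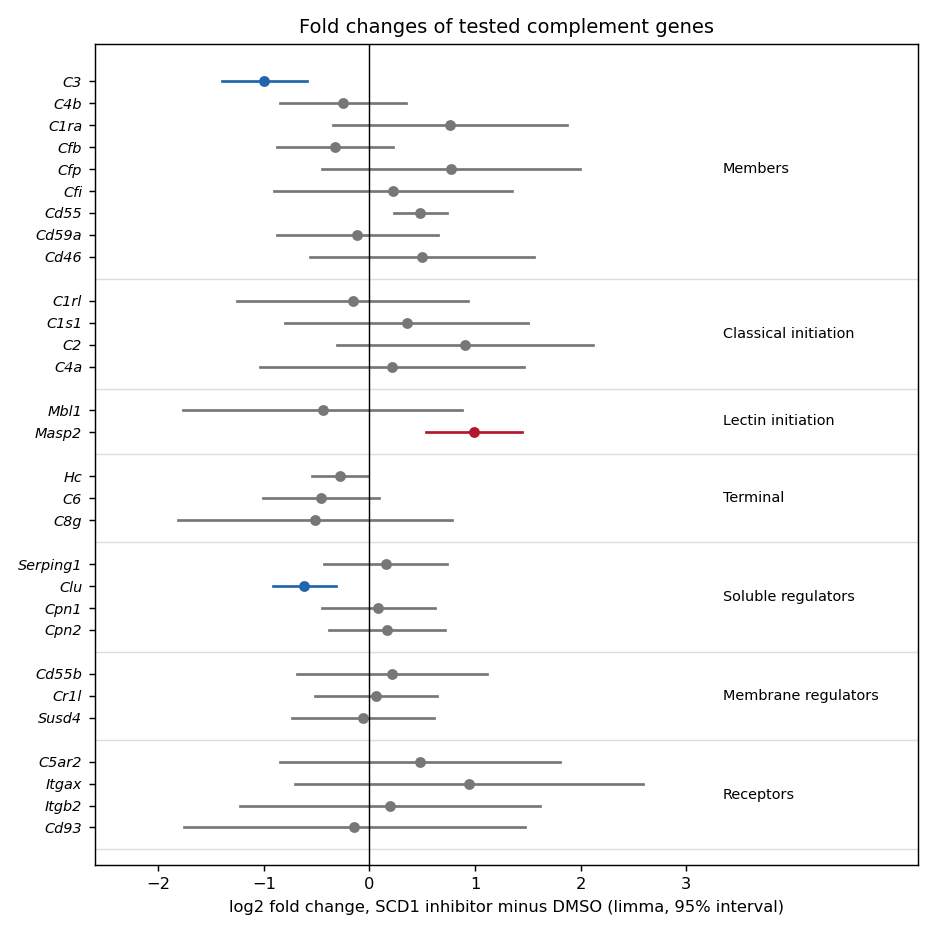
Log2 fold changes (SCD1 inhibitor minus DMSO, limma) with 95% intervals for the 9 members and other complement genes tested, grouped by role; blue marks genes that fell, red genes that rose and grey genes that did not pass. C3 (-0.996), Clu (-0.62) and Masp2 (0.99) are the 3 coloured points.

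**Figure D4:**
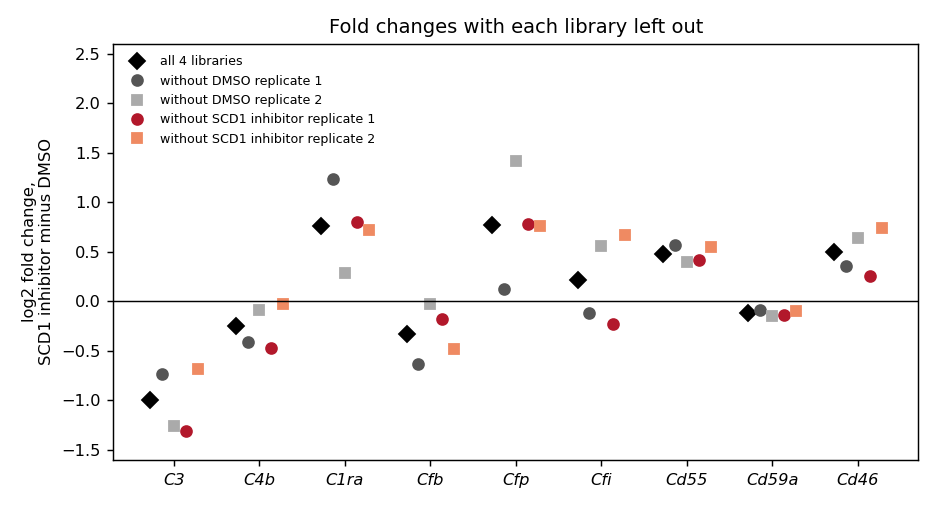
Log2 fold changes (SCD1 inhibitor minus DMSO) of the 9 members with all 4 libraries (black diamonds) and with each library left out in turn. C3 stays between -1.31 and -0.69 and Cd55 between 0.40 and 0.57, while Cfi crosses 0 (-0.23 to 0.67) and Cfp ranges from 0.13 to 1.42.

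Levels were compared between genes per kilobase of the longest annotated transcript. C3 was the highest of the members at 3796 ± 1679 normalised reads per kilobase (mean ± SD over 4 libraries), followed by Cd55 at 2089 ± 418. Their ranges overlapped (2004 to 5945 and 1640.1 to 2545). Next came Cfb at 264 ± 67.1, Cd59a at 128 ± 7.17 and C4b at 92.7 ± 17.2, none of whose ranges overlapped with their neighbours in this order. Cfp (49.0 ± 23.7), Cfi (47.1 ± 19.8), C1ra (32.0 ± 13.7) and Cd46 (14.9 ± 5.09) each overlapped with the next. With the median length of coding transcripts, an alternative added after seeing the data, Cd59a and C4b exchanged places, and so did Cfp and Cfi. The value of C3 is then 35188, since the median of its coding transcripts is 554 bases against 5136 for the longest, and it stays first.

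The ratio of C3 to Cd55 was computed after their values were seen. Per kilobase, it was 3.22 and 2.53 with DMSO and 1.21 and 0.861 with the inhibitor. By the longest transcript, C3 thus exceeded Cd55 in 3 of the 4 libraries and was below it in SCD1 inhibitor replicate 2. This order depends on the length used. By the median coding transcript (554 bases for C3 and 1886.5 for Cd55), the means over the 4 libraries were 35188 and 3470. The mean ratios by the longest transcript were 2.88 with DMSO and 1.04 with the inhibitor. The log2 ratio differed by -1.48 (exact permutation p = 0.333, two-sided, the smallest possible with 2 against 2).

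**Figure D5:**
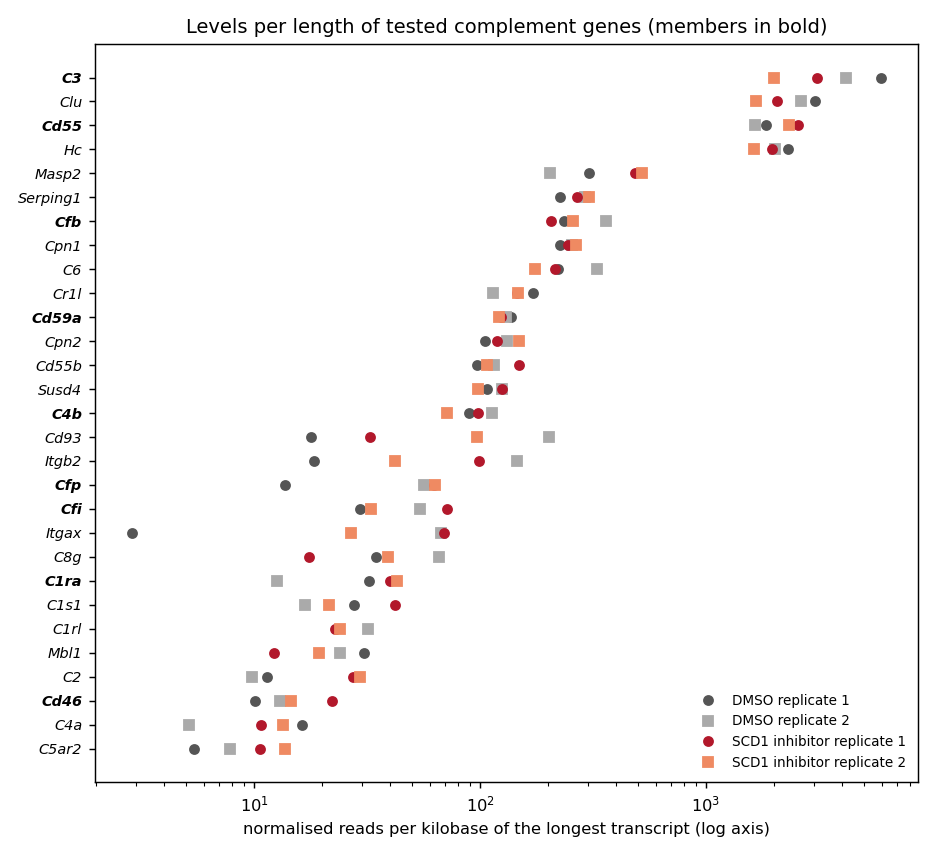
Normalised reads per kilobase of the longest transcript (log axis) in each library for tested complement genes, ordered by mean, with the 9 members in bold. C3, Clu, Cd55 and Hc form the top of the order with means from 1977 to 3796, and the next gene, Masp2, has a mean of 378.

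The rest of the pathway was read from a list of 53 other complement genes, of which 51 were in the table, 15 were at 0 in every library and 21 passed the floor of a mean of 25.8 normalised reads. Among the 21, 1 rose (Masp2) and 1 fell (Clu). The median log2 fold change was 0.15, and 13 were positive and 8 negative. With 1 library left out that median ranged from -0.018 (without DMSO replicate 1) to 0.17. Over all 13810 genes tested, 1.36% rose and 0.427% fell, the median was 0.0056, and 7000 were positive and 6810 negative.

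Clusterin (Clu), a secreted chaperone that also inhibits the terminal pore, had 5499 and 4777 normalised reads with DMSO and 3712 and 2997 with the inhibitor, with no overlap between groups. It fell by 0.62 on the log2 scale (SE 0.14, limma adjusted p = 0.0423). Its call held with DESeq2 (-0.61, adjusted p = 0.00325), which called 5.67% of genes. Clu also passed with edgeR and no filter on low counts and with a replicate block, fits from which no conclusion is drawn. It ended under edgeR with the filter (-0.62, adjusted p = 0.149) and with either inhibitor library left out (replicate 1: -0.77, and replicate 2: -0.46). Masp2, a protease of the lectin pathway, had 923 and 625 normalised reads with DMSO and 1489 and 1586 with the inhibitor, with no overlap between groups. It rose by 0.99 ± 0.21 on the log2 scale (SE; limma adjusted p = 0.0325). The call of Masp2 also held with DESeq2 (0.99, adjusted p = 0.00605). Masp2 passed as well in the same unfiltered edgeR and replicate block fits, from which no conclusion is drawn. Its call did not survive leaving out inhibitor replicate 1 (1.04) or 2 (0.95), nor edgeR with the filter (0.98, adjusted p = 0.137). In limma it also ended with no filter (adjusted p = 0.0872) and no intensity trend (0.453). Masp2 shares 54.9% of its exon bases with Tardbp on the opposite strand, which rose as well, by 0.54 ± 0.12 on the log2 scale (SE; limma adjusted p = 0.0355), from a far higher level (mean of 7669 normalised reads). Reads of the 2 genes cannot be told apart without the strand setting, so the value of Masp2 is uncertain.

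The terminal pathway was present in part. Hc, which encodes C5, had 12610.5 and 10949 normalised reads with DMSO and 10663 and 8840.1 with the inhibitor, and at 1977 per kilobase it stood close to Cd55. Its log2 fold change was -0.27 (interval -0.54 to -0.0099, limma adjusted p = 0.335). C6 had 504.6 to 950.4 normalised reads (-0.46, adjusted p = 0.463), whereas C8a, C8b and C9 were at 0 in all libraries. Factor D (Cfd), which activates factor B, was also at 0 in all 4 libraries, each 0 allowing up to 3 reads.

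Among the initiators of the classical pathway, C1qa, C1qb and C1qc, subunits of C1q made mainly by macrophages, reached at most 39.96 normalised reads and were at 0 in at least 1 library each. C1s1, the partner protease of C1ra, had 81.9 and 49.6 with DMSO and 123 and 62.9 with the inhibitor (log2 fold change 0.35, limma adjusted p = 0.829). Fibroblasts are a known source of C1r and C1s. Their summed markers were 890 and 2155 with DMSO and 2489 and 2516 with the inhibitor, with 0 of 5 called (limma, 2 at an unadjusted p under 0.05). Pdgfra was at 0 in DMSO replicate 1. DMSO replicate 2 was lower than replicate 1 in C1ra and C1s1, and also in the fibroblast marker Dcn (266 and 145), while Col1a1, Col1a2, Col3a1 and Pdgfra were higher in it. The part of fibroblast RNA in these values was not tested.

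Of the other regulators, 2 are given for their level. Serping1, the C1 inhibitor, had 398 to 538 normalised reads (log2 fold change 0.15, limma adjusted p = 0.860). Cr1l, the rodent membrane regulator Crry, had 664 and 440.02 against 563 and 569.6 (0.063, adjusted p = 0.943). Per kilobase its mean of 145 lay between those of Cfb and Cd59a.

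The anaphylatoxin receptors were low. C3ar1, the receptor of C3a, had 13.6 normalised reads in SCD1 inhibitor replicate 2 and 0 elsewhere, and C5ar1, the receptor of C5a, had at most 29.2. The integrin subunit gene Itgb2, the partner of Itgax, had 54.6 and 432 with DMSO and 294 and 125 with the inhibitor (log2 fold change 0.19, limma adjusted p = 0.929). The integrin subunit gene Itgax, part of a leukocyte receptor for cleaved C3b, had 11.7 and 272 normalised reads with DMSO and 281 and 109 with the inhibitor (log2 fold change 0.95, limma adjusted p = 0.636). Cd93, a surface protein of endothelium and myeloid cells once described as a C1q receptor, had 119 and 1348 with DMSO and 218 and 645 with the inhibitor (-0.14, adjusted p = 0.954). Both were lower in DMSO replicate 1 than in DMSO replicate 2. So were 3 of the 4 endothelial markers (Pecam1 194.9 against 1215), while Kdr was higher (1765 against 1513). The same held for 3 of the 4 common leukocyte markers (Ptprc 48.7 against 181), while Cd53 was higher (38.0 against 30.7). The part of endothelial and leukocyte RNA in these values was not tested. The direction of both genes turned with the DMSO library left out: Itgax had -0.55 without replicate 1 and 2.44 without replicate 2 (adjusted p = 0.604 and 0.0407), and Cd93 had -1.76 and 1.48 (adjusted p = 0.0139 and 0.135). Cd93 was also positive, at 0.59, when SCD1 inhibitor replicate 1 was left out.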

How the data were processed

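RNA sequencing of 4 libraries was used. The deposited signal values held the read count of each gene after division by a size factor common to its library. This was read from the values: 100% were whole multiples of the library's smallest value (within 0.01), and the inverse steps equalled median-of-ratios size factors (0.953 to 1.05). The step of DMSO replicate 2 (0.991) lies within 1% of 1, so its recovered reads rest on these properties alone. Per the submitters' processing notes, HOMER, DESeq2 and mm10 were used, with no versions or roles; the aligner is not stated, nor is the strand setting of the counting. Per the labels' protocols, libraries were made with a directional kit.

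Genes with a mean of at least 25.8 (the value of 1 read in 1000000 at the mean total) were tested, 13810 of 25124. The counting error of 1 library at that floor is 19.6%, which covers counting error only. limma 3.58.1 (R 4.3.3, intensity trend, prior degrees of freedom 11.2, no block) was fitted to log2(value + 25.8), tested first on simulated data. Folds are on that scale, which understates changes of low genes. edgeR 4.0.16 and DESeq2 1.42.0 were run on the recovered reads. Coordinates and lengths came from GENCODE M21 (GRCm38, which is mm10). The genes named were the members, their paralogs, list genes that passed, those of smallest p and of highest level in each role, C3ar1 and C5ar1, and the first markers of lists. Other genes (C6, C8a, C8b, C9, Cfd, C1qa, C1qb, C1qc, Serping1, Cd68, Marco, Cd53, Coro1a, Laptm5, Dcn, Col1a2, Col3a1, Kdr, Aqp5, Rtkn2, Wt1, Itgb2, Pdgfra, Retnlg, Lamp3, Tardbp and A330023F24Rik) were named after their values were seen. The value of 1 list gene is not reported here. Members and lists were chosen with earlier results of these data known. Alternatives were other pseudocounts, floors, scalings and tests, a replicate block and each library left out. Tables were made with pandas 2.3.3 and numpy 2.4.6 under Python 3.11.15, and figures with matplotlib 3.10.9.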

Additional observations from a re-analysis of the deposited data

How the results depend on the processing

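The count of genes past the threshold over all genes tested (247) was 477 with DESeq2, 10 with edgeR, 602 with edgeR without a filter on low counts, 64 with limma and no filter, 0 with limma and no intensity trend (1423 at an unadjusted p under 0.05) and 674 with a replicate block. It ranged from 5 to 795 with 1 library left out. The count of members (1) was 0 with edgeR, with no filter and with no trend, each with 2 at an unadjusted p under 0.05, 2 with the replicate block and with edgeR without a filter, and 0 to 2 with 1 library left out. The count of other complement genes (2) was 0 with edgeR (3 unadjusted), with no filter (2) and with no trend (4), 1 with the pseudocount divided by 4, and 0 to 3 with 1 library left out. The value of C3 stayed at -0.996 with no filter (limma adjusted p = 0.0872) and no trend (0.463), where its call ended, as it did with DESeq2 (-0.988) and edgeR (-0.996). Cd55 gained a call with DESeq2 (0.48), edgeR without a filter (0.47) and the replicate block (0.48, adjusted p = 0.00419). Ranges with 1 library left out were -1.31 to -0.69 for C3, 0.40 to 0.57 for Cd55, -0.23 to 0.67 for Cfi, -0.33 to 0.75 for C4a, -0.022 to 0.73 for C1s1, -0.22 to 0.35 for Cr1l, -0.55 to 2.44 for Itgax and -1.76 to 1.48 for Cd93. Where 1 library is left out, the spread comes from the other group's pair and the lone sample is assumed to vary like it; the cause of the other changes was not tested. Replicate numbers are not said to pair samples: same-numbered deviations correlated at r = 0.073 across genes. The edgeR fit without a filter was chosen after seeing the data.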
